A study of Homo sapiens with 61 samples.

Results

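The FOS family consists of 4 genes, FOS, FOSB, FOSL1 and FOSL2, which were followed here by name through all 14 groups of a study of neuronal responses to vincristine. They are 4 of the 58440 gene identifiers in the deposited count tables. The neurons came from WTC11, an established human line of induced pluripotent stem cells, and were exposed for 16 hours, at day 14 by the design text, to 5 nM of the microtubule-destabilising drug vincristine, or to DMSO vehicle, called untreated here. In experiment 1 every line carried a doxycycline-driven NGN2 cassette, and the groups were WT untreated and WT vincristine, DLK KO untreated and vincristine, LZK KO untreated and vincristine, and DLK LZK double KO untreated and vincristine, with 4 libraries each. In experiment 2 every group carried the CRISPR interference machinery and a lentiviral guide, and the groups were Control gRNA (a scrambled guide), ATF2 gRNA and JUN gRNA, each untreated and with vincristine, with 5 libraries each except for 4 of ATF2 gRNA vincristine. DLK (gene MAP3K12) and LZK (gene MAP3K13) are kinases upstream of the JNK pathway, and ATF2 and JUN are transcription factors that JNK phosphorylates. The labels do not say how many clones stand behind each knockout line, nor whether replicates were separate cultures, so p-values measure the spread between these libraries, which may be partly technical.

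FOS proteins are basic leucine zipper factors that do not form stable dimers with each other. They pair with JUN proteins, and these AP-1 dimers bind short DNA sites in the promoters and enhancers of stress, growth and activity genes. FOS is the classical immediate early gene, rising briefly after calcium entry, growth factors or stress in neurons, while FOSB is also induced by neuronal activity and FOSL1 and FOSL2 (FRA1 and FRA2) lack the transactivation region of FOS and are often induced later.

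FOS (ENSG00000170345.9) lies on the plus strand of chromosome 14 of GRCh38, from 75278774 to 75282230, and FOSB (ENSG00000125740.13) on the plus strand of chromosome 19, from 45467995 to 45475179. FOSL1 (ENSG00000175592.8) lies on the minus strand of chromosome 11, from 65892049 to 65900573, and FOSL2 (ENSG00000075426.11) on the plus strand of chromosome 2, from 28392448 to 28417312. The whole span of FOSB lies within ERCC1, a gene on the opposite strand with 0 exon bases in common, and FOSL2 overlaps the antisense gene FLJ31356 and the intronic transcript AC104695.3, again with 0 shared exon bases. Counts per gene are sums over all exons and do not separate transcript isoforms.

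The promoters are shown at the sequence that ATF2 and related CREB-type factors are known to bind, the cyclic AMP response element TGACGTCA or its core TGACG, because ATF2 is the target of one of the guides. In RefSeq on GRCh38.p14, 3 of the 4 members had a promoter entry, and each of these held this core within 250 bases before its RefSeq start. These starts (75278828 for FOS, 45467996 for FOSB and 28392858 for FOSL2) lie downstream of the starts of the annotated spans given above, so both FOSL2 windows and the end of the FOS window lie inside those spans. The core is in capitals (TGACG, or CGTCA where it lies on the minus strand), and the windows are FOS chr14:75278752-75278781, FOSB chr19:45467924-45467953, and FOSL2 chr2:28392780-28392809 (proximal) and chr2:28392645-28392674 (distal), all read on the plus strand from 5′ to 3′.
FOS: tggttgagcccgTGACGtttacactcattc
FOSB: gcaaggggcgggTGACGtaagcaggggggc
FOSL2 proximal: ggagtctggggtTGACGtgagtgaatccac
FOSL2 distal: gtgcgcggttggCGTCAgcgcggccgggag
Counted from the RefSeq start, the cores lie at -64 to -60 in FOS, -60 to -56 in FOSB, and -66 to -62 and -201 to -197 in FOSL2. On either strand the core occurs in 21.2% of the 35116 promoters of this table. The full TGACGTCA (1.65% of promoters, each of which also holds the core), the AP-1 site TGANTCA (6.57%) and the CArG box that serum response factor binds (1.16%) were not found in the 250 bases before these starts. Sequence farther upstream was not searched, so sites there would be missed. TATAAA (10.7%) was found at -33 to -28 in FOS and at -30 to -25 in FOSB. These are matches of letters and were not tested for binding.

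Total counts per library ran from 8410729 to 14647819 in experiment 1 and from 38925807 to 88392414 in experiment 2. Levels are CPM, each count scaled to its library total with TMM factors. Scaled to total counts alone, without TMM factors, 3 counts correspond to 0.205 to 0.357 CPM in experiment 1 and to 0.0339 to 0.0771 CPM in experiment 2. The targeted transcripts were reduced as labelled: MAP3K12 stood at 91.0 CPM in untreated WT against 26.3 in DLK KO and 19.7 in double KO, MAP3K13 at 99.1 against 31.9 in LZK KO and 29.6 in double KO, ATF2 at 129 in Control gRNA and 0.526 in ATF2 gRNA, and JUN at 88.5 and 2.87 in JUN gRNA. All 10 neuron markers were found, with a summed level of 6628 to 11191 CPM over libraries, against 8.09 to 74.2 for 6 pluripotent, 11.3 to 46.7 for 7 glial, 0.568 to 8.38 for 6 fibroblast and 6.31 to 95.9 for 5 cell cycle markers. In experiment 1 the library farthest from the rest of its group was WT vincristine replicate 4, whose log2 levels deviated from the other 3 by a root mean square of 0.519, against a median of 0.214 over libraries. In experiment 2 no library deviated by more than 0.312 (ATF2 gRNA vincristine replicate 2).

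FOS and FOSL2 passed the filter on low counts in both experiments, and FOSB and FOSL1 in neither, so 2 of the 4 members were tested. Per length (RPKM, counts scaled by depth and exon length), FOS was the most abundant member in untreated WT at 0.654 ± 0.093 (SD, n = 4), and FOSL2 stood at 0.191 ± 0.044. FOSB and FOSL1 together made up 2.63% to 14.8% of the family's summed RPKM over the group means of experiment 1, and 0.271% to 1.84% in experiment 2. In bulk RNA, more cells with a transcript and more transcript per cell cannot be told apart.

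FOS, the immediate early member, rose with vincristine in WT. Its level was 1.72, 2.05, 2.32 and 2.38 CPM in the 4 untreated libraries and 17.0, 15.5, 19.2 and 12.3 CPM in the 4 vincristine libraries. Every treated library lay far above every untreated one, and the lowest treated value was that of replicate 4, the library that stood apart. The log2 fold change was 2.91 ± 0.16 (SE, edgeR quasi-likelihood test, adjusted p = 4.18e-17), a 7.50-fold rise, and it was 3.01 without that library. In this comparison both members tested rose, where 30.2% of all genes tested were called and 15.7% of all genes tested were called higher.

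In the neurons without the kinases, the FOS response was small. In DLK KO the untreated libraries were at 4.02, 4.99, 4.07 and 4.41 CPM and the vincristine libraries at 5.92, 5.03, 5.07 and 5.53. The groups did not overlap, but the change of 0.30 ± 0.16 did not pass the test (adjusted p = 0.252; 6.53% of genes called in DLK KO, and 20.1% with only those groups fitted). In LZK KO the untreated libraries were at 2.84, 2.04, 2.59 and 2.59 CPM and the vincristine libraries at 2.77, 2.73, 3.17 and 2.18. These overlapped throughout, with a log2 fold change of 0.11 ± 0.20 (adjusted p = 0.857; 3.88% called in LZK KO). In double KO the untreated libraries were at 2.08, 2.01, 2.18 and 2.51 CPM and the vincristine libraries at 3.42, 2.91, 1.73 and 2.25. These also overlapped, with 0.22 ± 0.20 (adjusted p = 0.829; 0.0658% called in double KO, and 6.31% with only those groups fitted), and the 95% interval of -0.18 to 0.62 excludes a rise of the size seen in WT.

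The loss of the FOS response was tested directly as a difference in log2 fold change from WT. The effect in DLK KO was lower by -2.61 ± 0.23 (adjusted p = 1.39e-10), in LZK KO by -2.80 ± 0.26 (1.33e-09) and in double KO by -2.68 ± 0.26 (5.13e-10). Of all genes tested, the difference was called in 19.4% for DLK KO (9.41% lower), 12.4% for LZK KO (6.53% lower) and 19.4% for double KO (10.2% lower). Deleting LZK as well as DLK gave no further change that passed the test (double KO minus DLK KO, -0.08 ± 0.26, adjusted p = 0.904, 95% interval -0.60 to 0.44; 1.14% of genes called, 18.5% with only those groups fitted and 15.5% with limma voom). The effect in DLK KO was already only 0.30 ± 0.16, so this last test could hardly show a further loss. Treated FOS in the knockouts stood at 33.7% (DLK KO), 17.0% (LZK KO) and 16.1% (double KO) of the treated WT level, and all libraries of each lay below all of WT.

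**Figure D1:**
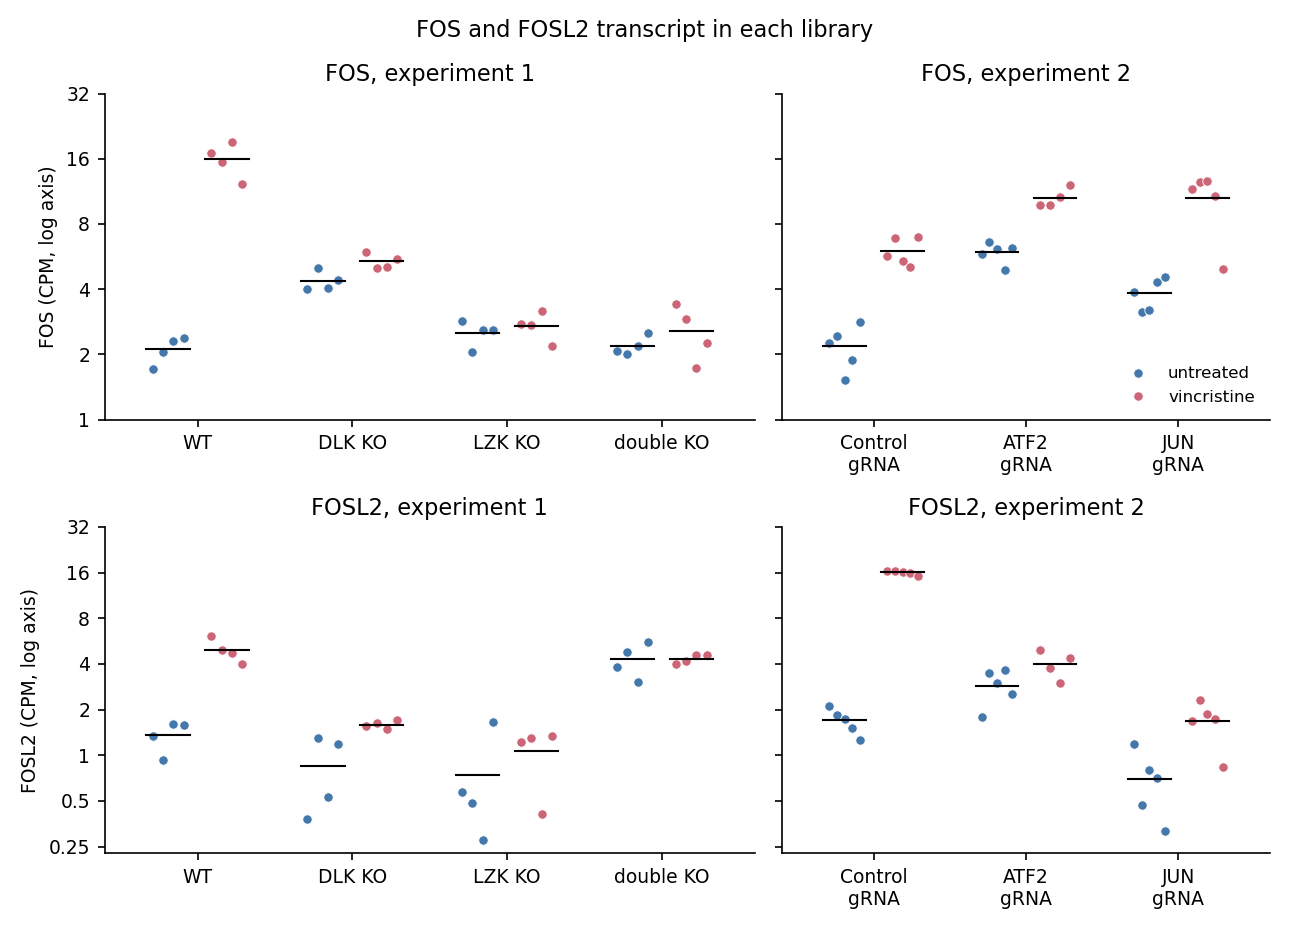
FOS (top) and FOSL2 (bottom) in each library, in CPM on a log axis, for experiment 1 (left) and experiment 2 (right); blue points are untreated and red points vincristine libraries, and bars are group means. FOS rises in WT, Control gRNA, ATF2 gRNA and JUN gRNA, while FOSL2 is highest in Control gRNA with vincristine (15.2 to 16.5 CPM) and is high in double KO under both treatments.

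The untreated level of FOS depended on the line. It was higher in untreated DLK KO (4.37 ± 0.45 CPM, SD, n = 4) than in untreated WT (2.12 ± 0.30), a log2 fold change of 1.03 ± 0.18 (adjusted p = 2.16e-05; 34.5% of genes called, 16.5% higher), with all 4 libraries above all 4 of WT. In untreated LZK KO it was 2.52 ± 0.34 CPM (0.25 ± 0.20, adjusted p = 0.388; 33.9% called). In untreated double KO it was 2.19 ± 0.22 CPM (0.04 ± 0.20, adjusted p = 0.901; 45.7% called). The 57 tested genes within 2 Mb on either side of FOS had a median log2 fold change of 0.10 in untreated DLK KO, with 15 called higher and 11 lower.

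In experiment 2 FOS rose with vincristine under all 3 guides, from different starting levels. In Control gRNA the untreated libraries were at 2.26, 2.43, 1.52, 1.88 and 2.83 CPM and the vincristine libraries at 5.68, 6.86, 5.41, 5.05 and 6.95. These groups were apart, with a log2 fold change of 1.46 ± 0.18 (adjusted p = 6.47e-09), and both members tested rose (35.3% of genes called, 17.1% higher). In ATF2 gRNA the untreated libraries were at 5.78, 6.57, 6.11, 4.89 and 6.19 CPM and the 4 vincristine libraries at 9.76, 9.78, 10.7 and 12.1. The groups were apart, and the change of 0.84 ± 0.18 passed the test (adjusted p = 0.0015), so that 1 of the 2 members tested rose (6.1% called, 1.88% higher). In JUN gRNA the untreated libraries were at 3.89, 3.14, 3.19, 4.32 and 4.57 CPM and the vincristine libraries at 11.6, 12.5, 12.7, 10.7 and 4.97. Replicate 5 of the treated group was far below the other 4 and only just above the highest untreated library. The log2 fold change was 1.46 ± 0.17 (adjusted p = 8.38e-09), and 1.64 without that replicate, and both members tested rose (15.9% called, 7.58% higher).

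Neither guide gave a difference in the FOS effect that passed the test. Against Control gRNA the effect in ATF2 gRNA was lower by -0.62 ± 0.25 (adjusted p = 0.0789, 95% interval -1.12 to -0.11), and its adjusted p was 0.0364 without Control gRNA untreated replicate 5. In JUN gRNA the difference was 0.01 ± 0.27 (adjusted p = 0.996, 95% interval -0.53 to 0.54). Between ATF2 gRNA and JUN gRNA it was -0.62 ± 0.24 (adjusted p = 0.209), and this difference was called, at -0.79 (adjusted p = 0.0152), without JUN gRNA vincristine replicate 5. Of all genes tested, 20.6% were called for ATF2 gRNA minus Control gRNA (10.4% lower), 15.8% for JUN gRNA minus Control gRNA (7.06% lower) and 2.83% for ATF2 gRNA minus JUN gRNA.

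FOS was higher without vincristine under both targeting guides. In untreated ATF2 gRNA it stood at 5.91 ± 0.64 CPM (SD, n = 5) against 2.19 ± 0.50 in untreated Control gRNA, a log2 fold change of 1.44 ± 0.18 (adjusted p = 7.14e-09; 39.9% of genes called, 19.7% higher). In untreated JUN gRNA it stood at 3.82 ± 0.65 CPM, 0.81 ± 0.18 above Control gRNA (adjusted p = 0.0015; 11.2% called, 5.78% higher and 5.46% lower). In both lines all 5 untreated libraries lay above all 5 of Control gRNA. Untreated ATF2 gRNA neurons thus held about as much FOS transcript as Control gRNA neurons with vincristine (5.99 ± 0.87 CPM), and the libraries of these groups overlapped. With vincristine, FOS reached 177% of the treated Control gRNA level in ATF2 gRNA, where all libraries were above, and 175% in JUN gRNA, where replicate 5 overlapped.

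**Figure D2:**
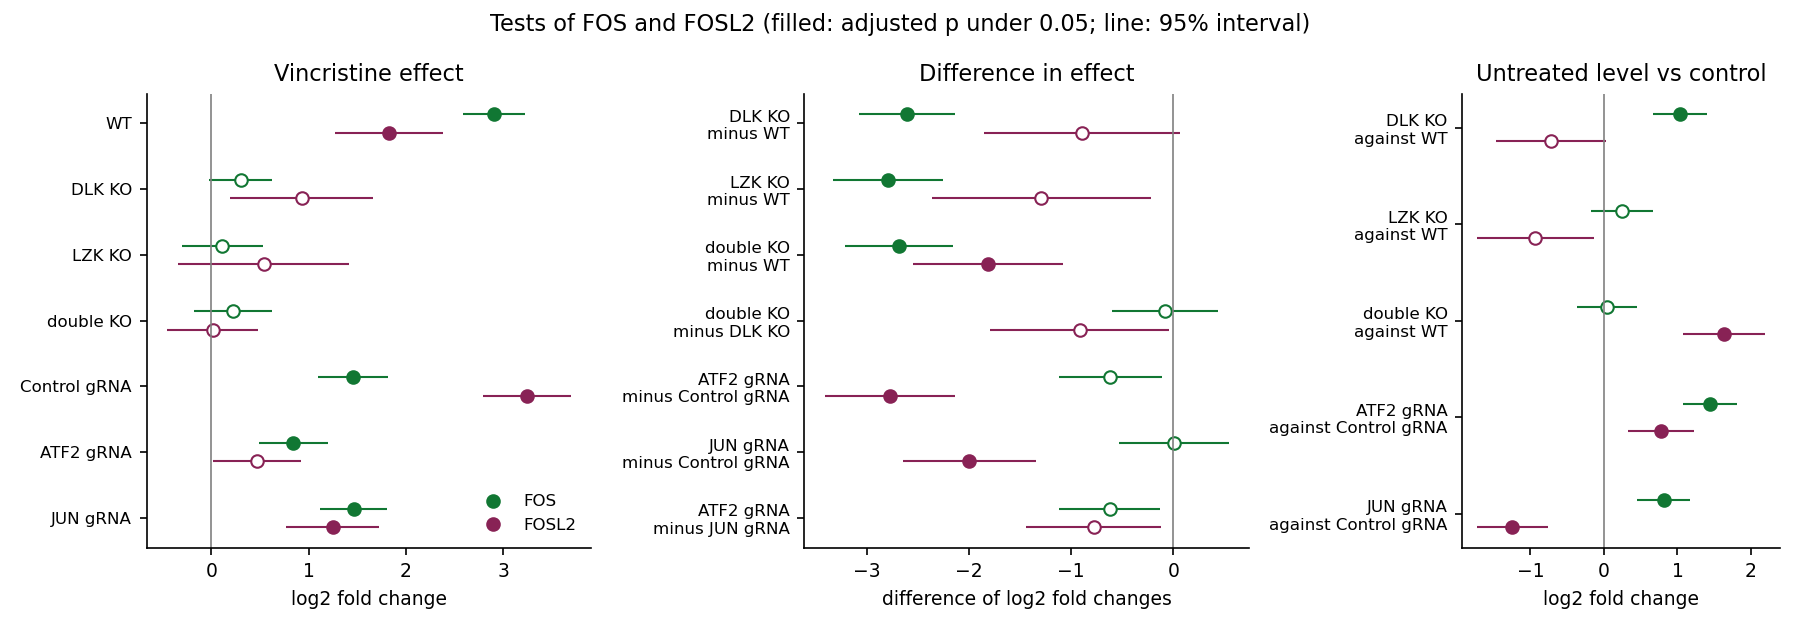
Log2 fold changes of FOS (green) and FOSL2 (purple) with 95% intervals, for the effect of vincristine, its difference between lines, and the untreated level against the control line; filled points passed the test (adjusted p under 0.05). The response of FOS is lower in the 3 kinase knockouts (-2.61 to -2.80), and that of FOSL2 in double KO, ATF2 gRNA and JUN gRNA (-1.82, -2.78 and -1.998).

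FOSL2 (FRA2), the other abundant member, also rose with vincristine in WT. Its level was 1.34, 0.93, 1.62 and 1.59 CPM in the untreated libraries and 6.08, 4.95, 4.69 and 3.99 CPM in the vincristine libraries. The groups were apart, and the log2 fold change was 1.83 ± 0.27 (adjusted p = 1.71e-06), a 3.55-fold rise, or 1.91 without WT vincristine replicate 4. These values rest on 10 to 60 counts per library in WT.

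In the single knockouts FOSL2 was low and its response did not pass the test. In DLK KO the untreated libraries were at 0.38, 1.30, 0.53 and 1.18 CPM and the vincristine libraries at 1.55, 1.62, 1.49 and 1.72. The treated libraries were all higher, with a log2 fold change of 0.93 ± 0.36 (adjusted p = 0.114). In LZK KO the untreated libraries were at 0.57, 0.48, 0.28 and 1.65 CPM and the vincristine libraries at 1.22, 1.31, 0.41 and 1.33. One library in each group was far from the other 3, and the change was 0.54 ± 0.43 (adjusted p = 0.597), or 0.83 without vincristine replicate 3. The difference from WT did not pass the test in DLK KO (-0.90 ± 0.47, adjusted p = 0.188, 95% interval -1.86 to 0.06) or LZK KO (-1.29 ± 0.53, adjusted p = 0.109, 95% interval -2.37 to -0.22). In LZK KO it was called, at -1.60 (adjusted p = 0.0391), without untreated replicate 3. These 4 groups rest on 3 to 19 counts per library. FOSL2 with vincristine stood at 32.4% of treated WT in DLK KO and 21.6% in LZK KO, and all libraries of both lines lay below all of WT.

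In the double knockout FOSL2 was high with and without the drug. The untreated libraries were at 3.85, 4.81, 3.02 and 5.59 CPM and the vincristine libraries at 3.97, 4.21, 4.60 and 4.60. These overlapped, with a log2 fold change of 0.01 ± 0.23 (adjusted p = 0.997). The effect was lower than in WT by -1.82 ± 0.36 (adjusted p = 0.000297), while the difference from DLK KO, -0.92 ± 0.43, did not pass the test (adjusted p = 0.263). Untreated double KO was 3.11-fold above untreated WT (1.64 ± 0.27, adjusted p = 5.34e-06, all 4 libraries above), a rise also in a comparison where 23.6% of genes were called higher. Its treated level was 88.2% of treated WT, and those libraries overlapped. The single knockouts did not show this: FOSL2 in untreated DLK KO was 0.85 ± 0.46 CPM (-0.72 ± 0.37, adjusted p = 0.13) and in untreated LZK KO 0.74 ± 0.62 CPM (-0.93 ± 0.39, adjusted p = 0.0639, and 0.00273 without LZK KO untreated replicate 4 or 0.0368 without WT untreated replicate 2). The 54 tested genes within 2 Mb of FOSL2 had a median log2 fold change of -0.05 in untreated double KO, with 5 called higher and 12 lower.

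In experiment 2 FOSL2 rose more than FOS in Control gRNA, and its response was smaller under both targeting guides. In Control gRNA the untreated libraries were at 2.10, 1.85, 1.75, 1.51 and 1.27 CPM and the vincristine libraries at 16.48, 16.49, 16.15, 15.95 and 15.20. The treated libraries lay within a narrow range far above the untreated ones, with a log2 fold change of 3.24 ± 0.22 (adjusted p = 9.28e-16), a 9.48-fold rise. In ATF2 gRNA the untreated libraries were at 1.79, 3.49, 2.98, 3.62 and 2.53 CPM and the vincristine libraries at 4.91, 3.77, 2.98 and 4.38. These groups overlapped, and the change of 0.47 ± 0.22 did not pass the test (adjusted p = 0.252). In JUN gRNA the untreated libraries were at 1.19, 0.47, 0.80, 0.71 and 0.32 CPM and the vincristine libraries at 1.68, 2.30, 1.86, 1.72 and 0.84. The treated values were again lowest in replicate 5, which fell inside the untreated range, and the log2 fold change was 1.25 ± 0.24 (adjusted p = 0.00012), or 1.4 without it.

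Tested directly, the FOSL2 effect was lower than in Control gRNA by -2.78 ± 0.31 in ATF2 gRNA (adjusted p = 3.76e-09) and by -1.998 ± 0.32 in JUN gRNA (adjusted p = 9.06e-06). The difference between ATF2 gRNA and JUN gRNA, -0.78 ± 0.33, did not pass the test (adjusted p = 0.254). Treated FOSL2 stood at 25.0% of the treated Control gRNA level in ATF2 gRNA and at 10.5% in JUN gRNA, with all libraries below all of Control gRNA. The untreated levels moved in opposite directions, with FOSL2 higher in ATF2 gRNA (2.88 ± 0.75 CPM against 1.70 ± 0.32, SD, n = 5; 0.78 ± 0.22, adjusted p = 0.00396) and lower in JUN gRNA (0.70 ± 0.33 CPM; -1.25 ± 0.24, adjusted p = 0.000253). For FOSL2 the untreated libraries of ATF2 gRNA overlapped those of Control gRNA, while those of JUN gRNA all lay below them. JUN itself, the partner of both proteins, was also low in untreated ATF2 gRNA (21.0 CPM), so the lines differ in JUN as well as in the factor named by the guide.

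The balance between the members was measured in each library as the ratio of FOSL2 to FOS RPKM, with exact permutation tests on its log2 (2-sided, 12 tests, chosen after the values were seen). In WT the ratio was 0.294 ± 0.062 untreated and 0.141 ± 0.022 with vincristine. It was lower in every treated library, by -1.05 on the log2 scale (exact p = 0.0286, the smallest that 4 against 4 allow, adjusted p = 0.0686). In Control gRNA it moved the other way, from 0.370 ± 0.115 to 1.23 ± 0.187, a log2 difference of 1.79 with all libraries apart (exact p = 0.00794, adjusted p = 0.0476). FOSL2 thus made up 54.5% of the family's RPKM in Control gRNA with vincristine but 12.0% in WT with vincristine. The experiments are separate tables with different constructs and depths, and this contrast between them was not tested.

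Under the targeting guides the ratio stayed low with vincristine. It was 0.224 ± 0.073 untreated and 0.173 ± 0.042 treated in ATF2 gRNA (log2 difference -0.35, exact p = 0.254), and 0.085 ± 0.042 and 0.073 ± 0.007 in JUN gRNA (-0.07, exact p = 0.905). In untreated JUN gRNA it was below Control gRNA in all libraries (-2.22, exact p = 0.00794, adjusted p = 0.0476). In experiment 1 the highest ratios were in double KO, at 0.889 ± 0.203 untreated and 0.826 ± 0.299 treated. Untreated double KO lay above untreated WT in every library (1.59, exact p = 0.0286, adjusted p = 0.0686), and untreated DLK KO below it (-1.89, the same p-values). The 5 tests not given here, of the vincristine effect in the kinase knockouts and of untreated LZK KO and ATF2 gRNA, had adjusted p of 0.0952 or more.

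**Figure D3:**
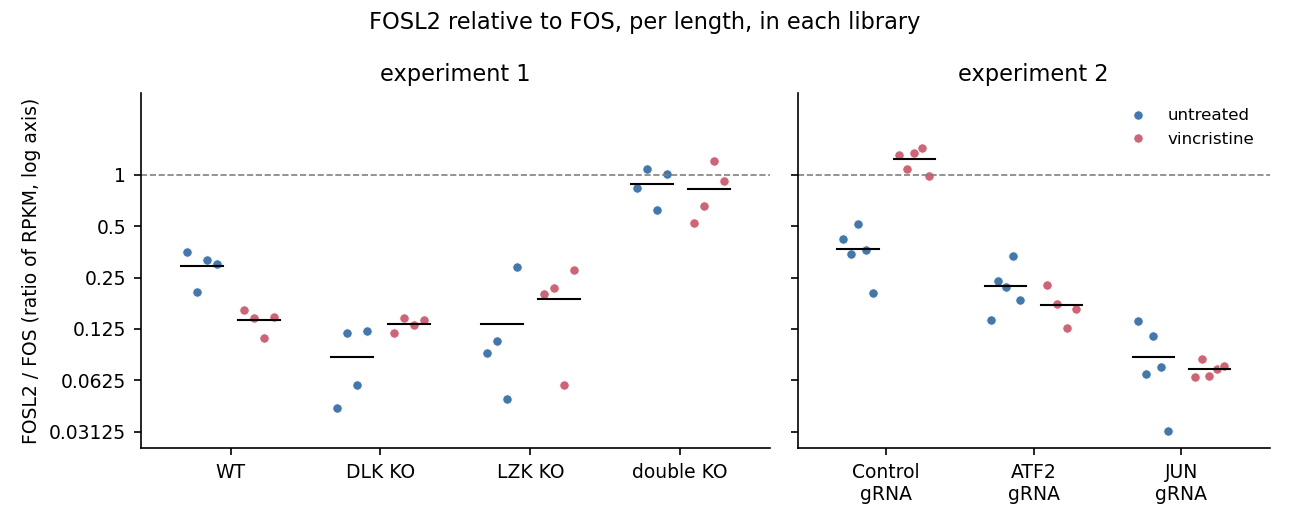
Ratio of FOSL2 to FOS RPKM in each library on a log axis, with group means as bars; the dashed line marks equal levels. Vincristine libraries (red) lie below the untreated ones (blue) in WT and above them in Control gRNA, where 4 of 5 are above 1, while the highest ratio in ATF2 gRNA or JUN gRNA is 0.336.

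FOSB, the other activity-induced member, was near the limit of detection. In WT its level was 0.096, 0.746, 0.492 and 0.596 CPM untreated and 0.203, 0.629, 0.608 and 0.755 CPM with vincristine, which are 1 to 8 counts per library and overlap. Group means ran from 0.291 CPM (DLK KO vincristine) to 0.811 CPM (LZK KO vincristine) in experiment 1. In experiment 2 they ran from 0.0405 CPM (JUN gRNA untreated) to 0.0923 CPM (Control gRNA untreated), with 0 to 14 counts per library. No neighbours in the order of its group means were apart. In none of the 7 lines did the change of FOSB with vincristine pass an exact permutation test (lowest adjusted p = 0.667 over 14 tests of FOSB and FOSL1, chosen after the values were seen).

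FOSL1 (FRA1) was the rarest member. It had 0 counts in all 10 JUN gRNA libraries, in all 5 untreated Control gRNA libraries and in the 4 untreated double KO libraries. In Control gRNA with vincristine it had 3, 6, 4, 1 and 0 counts, 14 in all, against 0 untreated. That difference had an exact p of 0.0476 and an adjusted p of 0.667, and an adjusted p of 0.0812 in the edgeR fit without a filter. In DLK KO it had 10 counts in the 4 vincristine libraries and 2 in the untreated ones (exact p = 0.2, adjusted p = 0.7). All its values lie within about the level of 3 counts or little above, so no fold is given, and at this depth neither a response nor its absence can be shown.

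**Figure D4:**
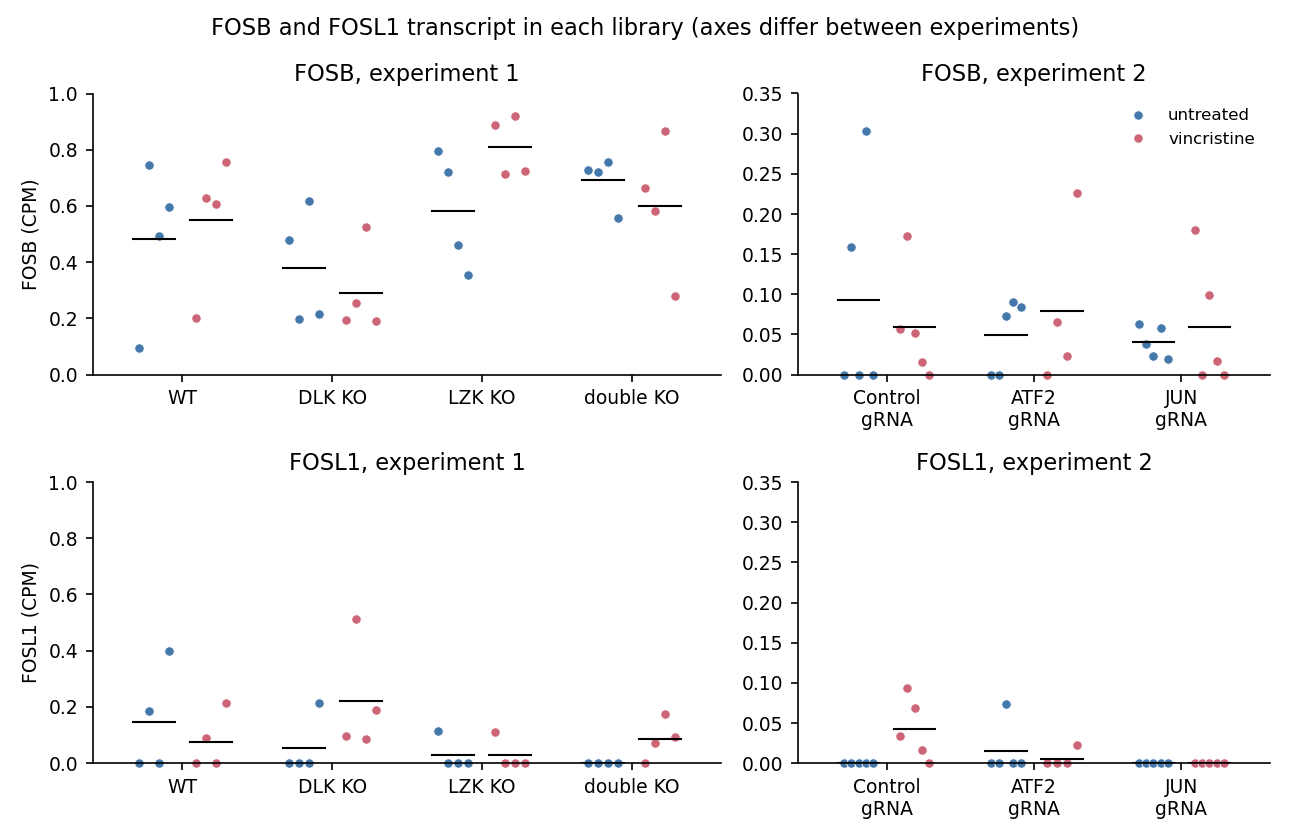
FOSB (top) and FOSL1 (bottom) in each library in CPM on linear axes whose range differs between experiment 1 (left) and experiment 2 (right); blue is untreated, red vincristine, bars are group means. No group lies apart from its untreated counterpart, and 0 counts are frequent, above all for FOSL1 in JUN gRNA.

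Ordered by mean level, FOS in experiment 1 ran from WT vincristine (16.0 CPM) over DLK KO vincristine (5.39) and DLK KO untreated (4.37), each apart from the next, to a set of 5 groups from 2.12 to 2.71 CPM whose neighbours overlapped. In experiment 2 ATF2 gRNA vincristine (10.6), JUN gRNA vincristine (10.5), Control gRNA vincristine (5.99) and ATF2 gRNA untreated (5.91) each overlapped the next, followed by JUN gRNA untreated (3.82) and Control gRNA untreated (2.19), each apart from the group above. For FOSL2 in experiment 1, WT vincristine (4.93) and both double KO groups (4.35 and 4.32) overlapped and stood apart from DLK KO vincristine (1.59) and the rest. In experiment 2 only Control gRNA vincristine (16.1) stood apart from its neighbour, ATF2 gRNA vincristine (4.01).

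The genes most like each member were sought among 12338 genes with a mean log2 CPM of at least 1 in both experiments, by the correlation of group means on the log2 scale over the 8 groups of experiment 1 and over the 6 of experiment 2. These groups share their libraries' scaling, and the values are a description. For FOS they were INO80 (a chromatin remodeller; r = 0.92 and 0.96), U73166.1 (0.91 and 0.95) and EGR1 (an immediate early zinc finger factor; 0.89 and 0.91). For FOSL2 they were KCTD16 (an auxiliary subunit of GABA-B receptors; 0.96 and 0.97), ABCB1 (the multidrug efflux pump, which transports vincristine; 0.98 and 0.96) and KLHL29 (0.98 and 0.96). FOS and FOSL2 were much less like each other, with r = 0.32 and 0.33.

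The partners with which FOS proteins dimerise, and their bZIP relatives, form a list of 12 genes, of which 9 were tested in experiment 1 and 10 in experiment 2. In WT 7 rose and 1 fell (median log2 fold change 1.09), beside 30.2% of all genes called. ATF3 was at 3.98 ± 0.11, CREB5 at 2.58 ± 0.11 and JDP2 at 2.56 ± 0.18. ATF3 is a stress-induced factor of injured neurons, JDP2 a repressor that dimerises with JUN, and CREB5 a relative of ATF2. In DLK KO and in LZK KO 5 rose and 0 fell, beside 6.53% (DLK KO) and 3.88% (LZK KO) of all genes called. In double KO 0 of 9 were called by edgeR, DESeq2 or limma, and 0 had an unadjusted p under 0.05, though 1 was called in a fit of those groups alone. Only 0.0658% of all genes were called in double KO, so a count of 0 is near that background. JUN, the main partner, rose by 2.04 ± 0.14 in DLK KO and by 1.27 ± 0.14 in LZK KO, lines in which the change of FOS did not pass the test. In Control gRNA 6 rose and 1 fell, with ATF3 at 3.48 ± 0.07, beside 35.3% of all genes called. In ATF2 gRNA, where 6.1% of all genes were called, 2 rose, ATF3 (0.48 ± 0.07) and JDP2 (0.78 ± 0.10). With limma voom and sample weights 4 were called. In JUN gRNA 6 rose and 0 fell, beside 15.9% of all genes called. Over all genes tested the median log2 fold change lay between -0.04 and 0.03 in every comparison.

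Of 21 other immediate early genes, 15 were tested in experiment 1 and 18 in experiment 2. In WT 10 rose and 1 fell (median 1.07), beside 30.2% of all genes called. EGR1 was at 4.01 ± 0.16, the synaptic gene ARC at 2.22 ± 0.17 and the nuclear receptor NR4A1 at 2.04 ± 0.25. In DLK KO 7 rose and 0 fell (6.53% of all genes called), and in LZK KO 7 rose and 1 fell (3.88% of all genes called). In double KO 0 of 15 were called by edgeR, DESeq2 or limma, and 1 had an unadjusted p under 0.05, in a comparison where 0.0658% of all genes were called. EGR1 was among those that rose in both single knockouts, by 0.79 ± 0.15 in DLK KO and 2.19 ± 0.19 in LZK KO. In Control gRNA 7 rose and 4 fell (35.3% of all genes called), and in JUN gRNA 9 rose and 3 fell (15.9% of all genes called). In ATF2 gRNA 5 rose and 0 fell, where 6.1% of all genes were called. The number called was 2 or 3 when untreated replicate 2, 3 or 4 or vincristine replicate 2, 3 or 5 was left out. EGR1 rose by 3.20 ± 0.11 in Control gRNA, 2.92 ± 0.10 in JUN gRNA and 0.41 ± 0.10 in ATF2 gRNA.

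The immediate early list was also high in untreated ATF2 gRNA, where FOS was high. There 10 of 18 were higher than in Control gRNA and 2 lower (median 1.47), where 39.9% of all genes were called. EGR1 stood at 536 CPM against 13.9, which is 5.27 ± 0.11 on the log2 scale. EGR2 stood at 11.1 CPM against 0.0391, and EGR3 at 1.19 CPM against 0.0168, where the Control gRNA levels rest on 13 and 4 counts summed over 5 libraries. JUNB, a JUN family partner, stood at 21.2 CPM against 8.09. Of the 10 bZIP partners tested, however, 3 were higher and 7 lower in untreated ATF2 gRNA (median -0.34). Among the lower were ATF2 itself (-7.88 ± 0.20) and CREB5 (-2.38 ± 0.10). In untreated JUN gRNA 7 of the 18 immediate early genes were higher and 3 lower (median 0.16), with EGR1 at 1.5 ± 0.1, where 11.2% of all genes were called. In untreated DLK KO, where FOS was also high, 6 of 15 were higher and 1 lower, where 34.5% of all genes were called and 16.5% called higher, with NR4A1 at 1.65 ± 0.26 and the phosphatase gene DUSP6 at 1.55 ± 0.07. In untreated double KO, where FOSL2 was high, 5 of 15 were higher and 3 lower, near the 45.7% of all genes called there, with NR4A1 at 1.57 ± 0.26 and EGR1 lower at -1.98 ± 0.20. Of the 9 bZIP partners tested, 0 were higher and 7 lower in untreated DLK KO (34.5% of all genes called), and 1 was higher and 5 lower in untreated double KO (45.7% called), where ATF3 was at -3.12 ± 0.17 and JUN at -1.82 ± 0.14. ATF2 itself was lower in untreated DLK KO, at 71.0 CPM against 141 in WT.

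**Figure D5:**
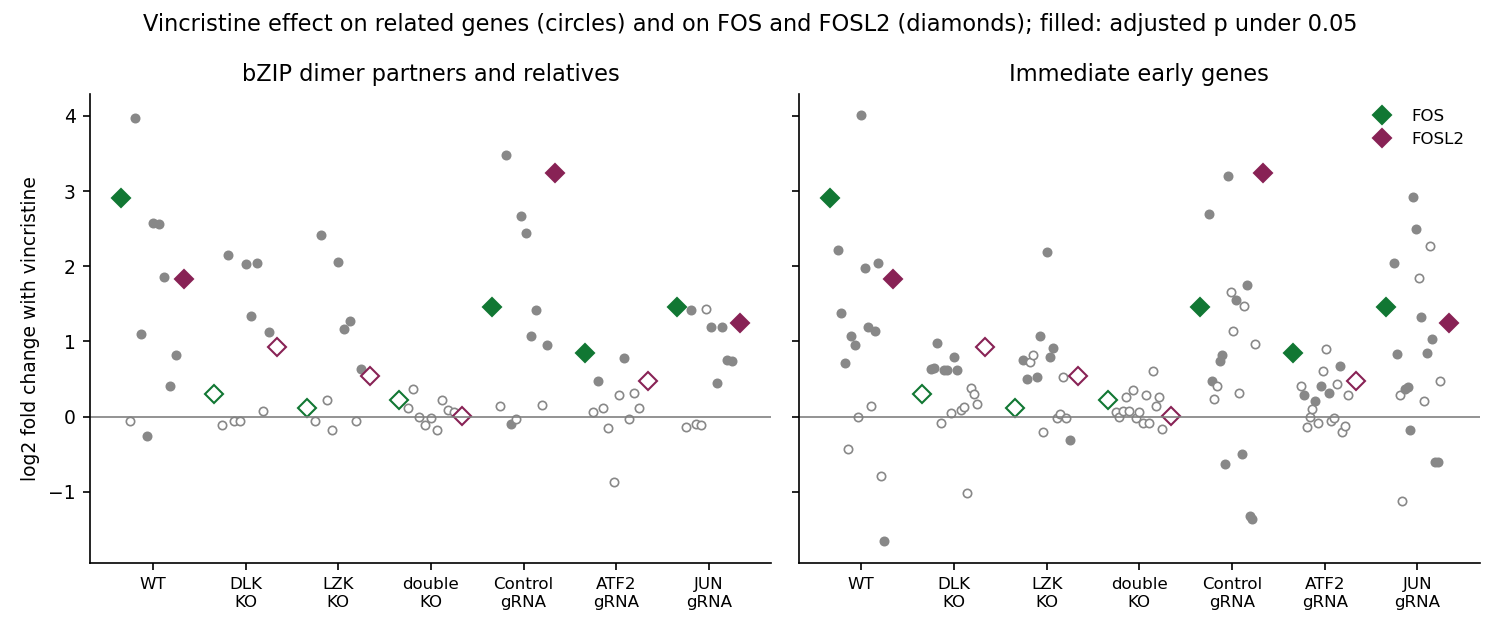
Log2 fold change with vincristine of the bZIP partners (left) and of other immediate early genes (right) as circles, beside FOS (green diamond) and FOSL2 (purple diamond), in each of the 7 lines; filled symbols passed the test (adjusted p under 0.05). In DLK KO and LZK KO filled circles lie above the open FOS diamond, and in double KO 0 symbols are filled.

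All 19 known or likely upstream regulators of FOS transcription were tested (SRF and its partners, CREB family, ERK and RSK kinases, STAT3). In WT 2 rose and 3 fell (median -0.13), beside 30.2% of all genes called, with SRF at -0.74 ± 0.15 and STAT3 at -0.53 ± 0.09, and 8 were called without WT vincristine replicate 4. In DLK KO, where edgeR called 6.53% of all genes, 0 were called by edgeR (8 at an unadjusted p under 0.05), 4 by DESeq2 and 8 by limma. There edgeR called 7 with only those groups fitted, 2 without a filter, 2 at a mean of at least 1 CPM, and 1 with RLE factors or without DLK KO vincristine replicate 3. In LZK KO and double KO 0 were called by any of these tools (3 and 1 at an unadjusted p under 0.05 with edgeR), and 1 was called in double KO with only those groups fitted. With 3.88% of all genes called in LZK KO and 0.0658% in double KO, a count of 0 is near that background. In Control gRNA 4 rose and 6 fell, where 35.3% of all genes were called, with STAT3 at -0.63 ± 0.04. In ATF2 gRNA 1 rose and 0 fell, beside 6.1% of all genes called. That call was lost without any of untreated replicates 1, 2, 3 or 5 or vincristine replicates 2 or 4. In JUN gRNA 3 rose and 4 fell, beside 15.9% of all genes called. These are transcript levels and do not measure the kinases' activity.

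Known AP-1 target genes were mostly too low to follow, with 3 of 13 tested in experiment 1 and 8 in experiment 2. In WT, where 30.2% of all genes were called, 1 rose, the protease inhibitor TIMP1 (0.74 ± 0.22), and 1 fell, the cyclin CCND1 (-0.55 ± 0.20). The CCND1 call was lost without WT untreated replicate 3 or 4 or vincristine replicate 1 or 4. In the 3 kinase knockouts 0 were called by edgeR, DESeq2 or limma, and 0 reached an unadjusted p of 0.05. Under the Control gRNA 4 rose and 0 fell, where 35.3% of all genes were called. These included TIMP1 (1.23 ± 0.18) and the metalloprotease MMP10 (2 counts untreated and 115 with vincristine). Only 2 were called when untreated replicate 1, 2, 3 or 5 or vincristine replicate 1, 2 or 3 was left out. In ATF2 gRNA 0 rose and 1 fell (6.1% of all genes called), and in JUN gRNA 1 rose and 1 fell (15.9% of all genes called). In untreated DLK KO, with its higher FOS, 2 of the 3 were higher and 1 lower (34.5% of all genes called). MMP9 stood at 9.57 CPM against 0.0951 in WT and CCND1 was higher by 2.24 ± 0.16. TIMP1 was lower by -0.80 ± 0.26, a call that 4 of the alternatives lost. Untreated FOS was also higher under both targeting guides. Of 8 tested in untreated ATF2 gRNA, TIMP1 was higher (2.01 ± 0.18) and CCND1 lower (-0.68 ± 0.14), where 39.9% of all genes were called. In untreated JUN gRNA 0 were higher and 1 lower, TIMP1 by -0.72 ± 0.19 (11.2% called). In untreated double KO 0 of the 3 were higher and 1 was lower, TIMP1 by -2.74 ± 0.33 (45.7% of all genes called).

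Markers of other cell types were read beside these results. The summed neural progenitor list (5 genes, 97.5 to 2524 CPM over libraries) rose with the drug, as FOSL2 did, in WT and Control gRNA. Between untreated lines its median was lower in double KO (108 CPM against 736 in WT) and ATF2 gRNA (811 against 1341 in Control gRNA), where FOSL2 was higher. It was also lower in JUN gRNA (1051), where FOSL2 was lower. In DLK KO (245) and LZK KO (546) it was below WT, while the change of FOSL2 did not pass the test. The summed level was almost wholly that of NES, an intermediate filament gene. NES went from 717 to 1529 CPM in WT, from 226 to 536 in DLK KO, from 516 to 970 in LZK KO, from 92.1 to 84.8 in double KO, from 1325 to 2432 in Control gRNA, from 765 to 735 in ATF2 gRNA and from 1021 to 1689 in JUN gRNA. SOX2, the defining progenitor factor, went from 22.4 to 20.5 CPM in WT and from 14.5 to 22.2 in Control gRNA, and stood untreated at 5.30 in DLK KO, 16.4 in LZK KO, 10.8 in double KO, 22.4 in ATF2 gRNA and 11.9 in JUN gRNA. Member by member the list was mixed. In untreated LZK KO 3 of 5 were higher and 2 lower (median 1.25, 33.9% of all genes called). In untreated ATF2 gRNA 3 were higher and 1 lower (median 0.63, 39.9% of all genes called). NES was lower in both. Of the 10 neuron markers, 1 was higher and 5 lower in untreated DLK KO (34.5% of all genes called). In untreated ATF2 gRNA 3 were higher and 6 lower (39.9% called), and in untreated JUN gRNA 0 higher and 4 lower (11.2% called). Untreated FOS was higher in these lines. In untreated LZK KO 2 were higher and 2 lower (33.9% called), and in untreated double KO 4 higher and 4 lower (45.7% called). Untreated FOS did not pass the test in those 2 lines. With vincristine 3 of the 10 rose and 5 fell in Control gRNA (35.3% called). The median of their summed level over libraries went from 9641 to 7971 CPM there, against 7392 in untreated ATF2 gRNA. The pluripotent list was highest in double KO (65.4 to 74.2 CPM against 8.09 to 11.7 in WT), but POU5F1, its defining gene, stood at 0.670 CPM there and at 0.292 in WT, both untreated. NANOG had 0 counts in untreated ATF2 gRNA and in both JUN gRNA groups, and the glial GFAP in untreated LZK KO, Control gRNA and JUN gRNA and in treated ATF2 gRNA. The cell cycle list was highest in LZK KO (66.1 to 95.9 CPM against 10.4 to 14.8 in WT), and the fibroblast list was higher in ATF2 gRNA (6.53 to 8.38 CPM) than in Control gRNA (1.77 to 3.72), though COL1A1 was lower (0.226 against 0.979 CPM untreated). The part of these markers in the FOS family results was not tested.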

How the data were processed

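RNA was sequenced from 61 libraries of 14 groups in 2 experiments, each deposited as a table of raw counts per gene with exon length. Per the submitters' processing notes, the authors used cutadapt 3.4, STAR, featureCounts and Subread 2.0.1 with GRCh38, and per the labels libraries were stranded and poly(A)-selected. Neither the strandedness used in counting nor the handling of the marked duplicates is given in the sources used here.

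Each experiment was fitted apart in edgeR 4.0.16 (limma 3.58.1, R 4.3.3): filterByExpr by group, TMM factors, 1 mean per group, robust quasi-likelihood tests (2-sided) and Benjamini-Hochberg adjustment over all genes tested (18235 and 20759), called under an adjusted p of 0.05. CPM used TMM factors, and RPKM the deposited lengths. The scripts were tested on simulated data. Of 58440 identifiers, 58320 matched a symbol. Members, gene lists and tests were chosen with earlier results of these data known. Named list genes are at most the 3 largest calls per list in WT, Control gRNA and untreated comparisons where a member was called. Other genes named (such as NES, JUNB and, in ATF2 gRNA, ATF3 and JDP2) were chosen after their values were seen. No replicate library was a copy of another: over 104 pairs, the lowest chi-square per degree of freedom was 1.53. Alternatives were DESeq2 1.42.0, RLE factors, other filters, a replicate block, limma voom with sample weights, fits restricted to the compared groups, and omission of each library in turn.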

Additional observations from a re-analysis of the deposited data

Results flagged for a closer look

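In 28 groups of libraries (2 tested members in 14 groups), a library was far from the rest of its group by Dixon's criterion in 2, where chance gives about 1 in 20. FOS in JUN gRNA vincristine replicate 5 was 4.97 CPM, against 10.7 to 12.7 in the other 4 libraries. That library was also the lowest of its group for JUN and EGR1. FOSL2 in LZK KO vincristine replicate 3 was 0.409 CPM, which is 4 counts, against 1.22 to 1.33 in the others.

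The response to vincristine differed between lines by a test of the difference itself in 6 cases. For FOS the log2 fold change was lower than in WT by -2.61 in DLK KO, by -2.80 in LZK KO and by -2.68 in double KO. For FOSL2 it was lower than in WT by -1.82 in double KO, and lower than in Control gRNA by -2.78 in ATF2 gRNA and by -1.998 in JUN gRNA.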

How the results depend on the processing

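Of 38 results (FOS and FOSL2 in 19 comparisons), 30 kept their direction and side of the threshold under every alternative run, as did 690 of 720 single alternatives, and no called result lost its call. The difference in the FOS effect between ATF2 gRNA and Control gRNA became a call when only those groups were fitted (-0.61, adjusted p = 0.0393), and ran from -0.74 to -0.50 with single libraries left out. That between JUN gRNA and Control gRNA, near 0, changed sign without a filter (-0.033), with a mean of at least 1 CPM (-0.011) and with only those groups fitted (-0.0058), and ran from -0.12 to 0.17 with libraries left out. FOSL2 in untreated LZK KO was called by DESeq2 (-0.95, adjusted p = 0.0386) and ran from -1.66 to -0.65 with libraries left out. With libraries left out, the FOS difference between ATF2 gRNA and JUN gRNA ran from -0.79 to -0.54, that between double KO and DLK KO from -0.21 to 0.082, FOS in untreated double KO from -0.044 to 0.10, the FOSL2 difference between LZK KO and WT from -1.60 to -0.57, and the FOSL2 effect in double KO from -0.13 to 0.17. The cause of these shifts was not tested. Among the list genes and list counts, 46 alternatives lost a call and 43 moved a count by over 1.5 times, and 0 reversed. Replicate numbers did not pair the libraries: same-numbered libraries of a line correlated over 0.1 in 1 of 16 pairs in experiment 1 and 0 of 14 in experiment 2. A replicate block gave 2.90 for FOS and 1.83 for FOSL2 in WT, and 1.46 and 3.26 in Control gRNA, and changed no call of these 38. FOSB and FOSL1 in both experiments, and FOSL2 in the single kinase knockouts, rest on low counts; the part of depth in the uncalled FOSL2 results was not tested. The share of all genes called also moved. With only the groups compared the vincristine effect was called in 21.9% (WT), 20.1% (DLK KO), 1.77% (LZK KO), 6.31% (double KO) and 4.22% (ATF2 gRNA) of genes, and the difference in 6.4% for LZK KO minus WT and 18.5% for double KO minus DLK KO. With limma voom it was 19.6% in DLK KO, 0.329% in double KO, 19.8% for LZK KO minus WT, 32.5% for double KO minus WT and 15.5% for double KO minus DLK KO, for which DESeq2 gave 2.35% and no filter 1.01%. Leaving out DLK KO untreated replicate 1 or 2 or vincristine replicate 1, 2 or 4 gave 3.2% to 4.11% in DLK KO, and LZK KO untreated replicate 2 gave 2.42% in LZK KO. For double KO minus DLK KO, omitting from double KO its untreated replicate 2 or vincristine replicate 4, or from DLK KO its vincristine replicate 1, 2 or 4, gave 0.615% to 0.723%.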
